A study of Homo sapiens with 6 samples.

Results

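The secreted Wnt antagonists of the Dickkopf family, DKK1, DKK2, DKK3 and DKK4, and their cell surface receptors KREMEN1, KREMEN2, LRP5 and LRP6 were followed in A2058 melanoma cells after silencing of CT16. The members were all probes to which the platform annotation gave one of these 8 gene symbols. There were 10 such probes among the 47289 probes with values, with 3 for DKK3 and 1 for each other gene. The family was selected on the difference of DKK1 between the groups, already known from these same arrays, so the differences of DKK1 and of the other members are given as a description and support nothing further. A2058 is an established human melanoma cell line that expresses the cancer-testis antigen CT16. Total RNA came from 3 individual cultures treated with CT16 siRNA and 3 treated with a non-targeting control siRNA, all taken at 48 h. A single siRNA sequence against CT16 was used on the arrays, so effects of that sequence and of the loss of CT16 cannot be told apart here.

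Wnt proteins signal by bringing together a Frizzled receptor and a co-receptor, LRP5 or LRP6, which leads to the accumulation of beta-catenin and to transcription by TCF/LEF factors. DKK1 binds the co-receptors and blocks this branch of the pathway, and the Kremen receptors bind DKK1 and help to remove the co-receptor from the cell surface. DKK1 is itself known as a target gene of beta-catenin and TCF, and thus as a feedback inhibitor of the pathway.

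Transcript levels were read on Illumina Sentrix Human-6 bead arrays, each of which took labeled cRNA from 1 sample. Per array, 12895 to 13110 probes were above background with CT16 siRNA and 11311 to 12561 with control siRNA, without overlap, and the cause was not tested. Above background here means a detection p-value under 0.05 against the negative control beads. The median signal was 164.4 to 190.6. Values of single arrays are given in the order of replicates 1, 2 and 3. Of all probes, 12082 (25.5%) were above background on at least 3 of the 6 arrays. CT16 siRNA replicate 1 stood apart on the first principal component of these probes, with a score of 37.5 against -21.1 to 9.03 on the other arrays. The probe of PAGE5, the gene that encodes CT16, was not above background on any array (detection values 0.178 to 0.815). The silencing could thus not be checked by these data. Of the melanocyte lineage markers, 8 of 9 with a named probe were above background, among them SOX10, PMEL and MITF. PMEL (-0.35), TYR (-0.50) and EDNRB (-0.62, log2 difference) were lower with CT16 siRNA without overlap, 3 of the 8 (37.5%) against 9.77% of all named genes above background, although with a median shift the groups overlapped in PMEL. The groups overlapped in the other markers above background. Of these, SOX10 was lower (-0.24), while MITF (0.21), GPR143 (0.04), S100B (0.03) and TYRP1 (0.01) were higher. After quantile normalization, on the linear scale, the summed signal of the 9 lineage markers was 8109 to 9191 with CT16 siRNA and 10029 to 11120 with control siRNA. The part of this in the differences of the members was not tested. Of 9 markers of leukocytes, endothelium, keratinocytes and fibroblasts only PECAM1 and DCN were above background. PECAM1 was higher without overlap (0.26), but it was above background on 3 of the 6 arrays only and may have passed the filter through 1 group. The groups overlapped in DCN. The summed signal of the 9, also after quantile normalization, was 1556 to 1578 with CT16 siRNA and 1560 to 1610 with control siRNA.

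The promoter of DKK1 is shown because this gene had the largest difference among the members, and that of LRP5 because it is a co-receptor that DKK1 binds and is the other member for which a promoter sequence was at hand (2 of 8 genes matched). Both are the 250 bases before the start site in RefSeq on GRCh38.p14, plus strand, chr10:52314031-52314280 for DKK1 and chr11:68312341-68312590 for LRP5. Capitals mark matches to TATAAA, the core of the TATA box, and to the TCF/LEF core spelled CTTTG followed by AA, AT, TA or TT, both searched on both strands.
DKK1: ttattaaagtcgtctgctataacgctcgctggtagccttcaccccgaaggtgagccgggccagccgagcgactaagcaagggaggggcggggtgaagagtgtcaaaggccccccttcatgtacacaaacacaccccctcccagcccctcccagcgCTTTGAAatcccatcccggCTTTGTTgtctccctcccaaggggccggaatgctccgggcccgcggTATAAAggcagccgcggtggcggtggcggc
LRP5: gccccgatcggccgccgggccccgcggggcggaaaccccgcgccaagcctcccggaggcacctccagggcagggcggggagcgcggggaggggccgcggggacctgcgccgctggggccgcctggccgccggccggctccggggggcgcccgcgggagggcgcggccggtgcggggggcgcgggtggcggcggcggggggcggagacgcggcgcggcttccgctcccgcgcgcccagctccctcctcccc
The DKK1 window held 1 match to TATAAA, which began 30 bases before the start site, and 2 matches to the TCF/LEF core, CTTTGAA from 95 to 89 and CTTTGTT from 76 to 70 bases before it. All 3 were on the strand of the gene, and none overlapped another. Over 35116 promoter windows of the same length, 10.7% held TATAAA and 12% held a TCF/LEF core on either strand. The LRP5 window held neither motif and was 87.2% G and C, against 62.8% for DKK1 and a median of 58% over all windows. A match is a description of the letters and not evidence of binding.

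DKK1, the founding Dickkopf antagonist, was higher with CT16 siRNA. Before normalization the DKK1 signal was 2150.5, 2020.4 and 1382.3 with CT16 siRNA, against 566.2, 593.5 and 669.1 with control siRNA. Every CT16 siRNA array was thus above every control siRNA array, and the lowest, CT16 siRNA replicate 3, lay well apart from the other two. The detection value was 0 on all 6 arrays.
After quantile normalization, the log2 signal of DKK1 was 11.16, 10.91 and 10.36 with CT16 siRNA, against 9.26, 9.34 and 9.36 with control siRNA. The mean was 10.81 ± 0.41 with CT16 siRNA and 9.32 ± 0.05 with control siRNA (SD, n = 3 arrays each). The log2 difference was 1.49 (standard error 0.19), a fold change of 2.81.

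**Figure D1:**
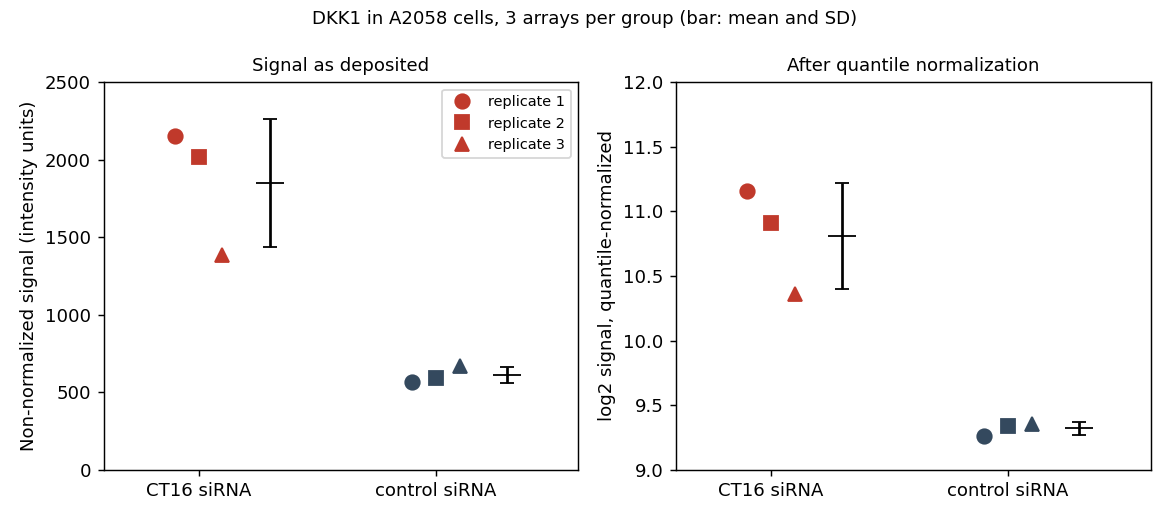
DKK1 on each array, as the deposited signal in intensity units (left) and as the quantile-normalized log2 signal (right), for CT16 siRNA and control siRNA, with the group mean and SD beside the points. The CT16 siRNA arrays lie between 1382.3 and 2150.5 and the control siRNA arrays between 566.2 and 669.1.

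The spread of DKK1 was unequal between the groups. Its SD over the CT16 siRNA arrays was above that of 87.1% of the probes above background, while over the control siRNA arrays only 11.9% of probes had a smaller SD. The median SD over these probes was 0.17 with CT16 siRNA and 0.12 with control siRNA. The largest log2 difference of DKK1 within a group was 0.80, between CT16 siRNA replicates 1 and 3, and within the controls it was 0.09.
Among the CT16 siRNA arrays the order of DKK1 was also that of the first principal component, whose scores were 37.5, 9.03 and -16.5 for replicates 1, 2 and 3. The control siRNA arrays had scores of -21.1 to -4.49, and the part of this component in the level of DKK1 was not tested. Without CT16 siRNA replicate 1 the log2 difference was 1.32 (standard error 0.16).

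The study selected genes by the rank product, an average of ranks, and here the ranks were taken in each of the 9 pairs of a CT16 siRNA with a control siRNA array. The rank of DKK1 from the highest of 47289 probes was 1 in all 3 pairs with CT16 siRNA replicate 2. With CT16 siRNA replicate 1 it was 2, 33 and 2 against control siRNA replicates 1, 2 and 3, and with CT16 siRNA replicate 3 it was 10, 13 and 7. The ratio itself was highest with CT16 siRNA replicate 1 (log2 1.80 to 1.90), lower with replicate 2 (1.55 to 1.65) and lowest with replicate 3 (1.01 to 1.10). The pairs share arrays and are not independent of each other.

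**Figure D2:**
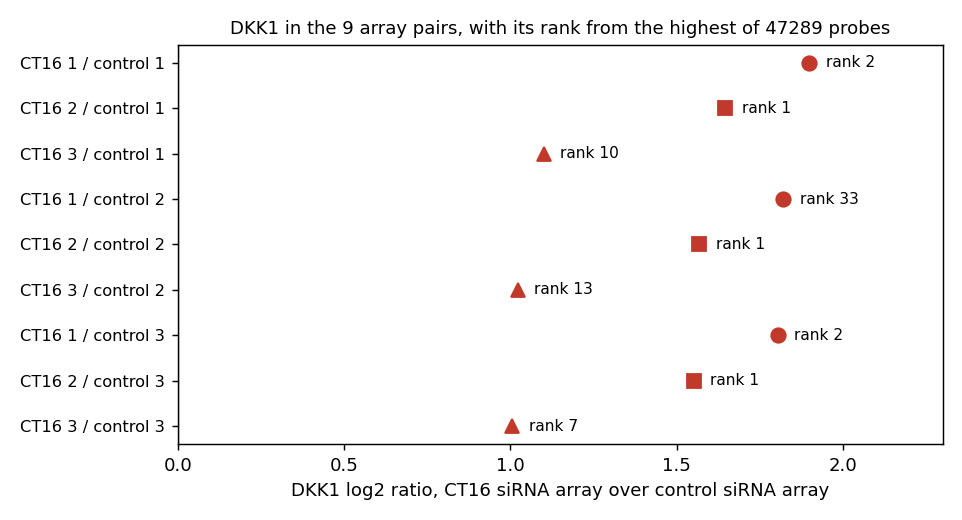
The log2 ratio of DKK1 (x axis) in each of the 9 pairs of a CT16 siRNA array over a control siRNA array, with the rank of DKK1 from the highest of all 47289 probes. All ratios lie between 1.01 and 1.90, and the ranks between 1 and 33.

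By the geometric mean of these ranks, which is the rank product, DKK1 was first of all probes (3.67). It also had the largest positive log2 difference among the 12082 probes above background, followed by a probe of UTS2 at 1.11. Only 4 probes (0.0331%) had a log2 difference of 1 or more.

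The limma fit over all 6 arrays called 0 of the 12082 probes (0%) at an adjusted p of 0.05, so no member passed either, and 1156 probes (9.57%) lay under that value before adjustment. Leaving out CT16 siRNA replicate 1 gave 11 calls, and leaving out replicate 3 of that group gave 195. DKK1 was among the calls in both of these fits (adjusted p = 0.022 and 0.00185 by limma) and in no other fit with 1 array left out (0.675 to 0.939), while DKK3, KREMEN2 and LRP5 were called in none. Since DKK1 was selected on this difference, these values describe the fit and are no independent test. As a background, 16.3% of these probes had groups without overlap, 7.39% higher and 8.95% lower with CT16 siRNA. Lack of overlap alone, as in DKK1 and DKK3, was thus common, and the smallest p that an exact permutation test of 3 and 3 arrays allows is 0.1.

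Of the other Dickkopf genes, DKK3 alone was above background, and by only 1 of its 3 probes. DKK3 is a divergent member of the family that does not act on the LRP co-receptors as DKK1 does. The signal of its bright probe was 373, 346.9 and 325.1 with CT16 siRNA, against 384.9, 331.5 and 368.3 with control siRNA, so that the groups overlapped before normalization. The quantile-normalized log2 signal was 8.33, 8.36 and 8.40 with CT16 siRNA, and 8.67, 8.55 and 8.53 with control siRNA, without overlap. The log2 difference was -0.22 (standard error 0.09, n = 3 per group). With a median shift in place of quantile normalization, the groups overlapped and the difference was -0.017 (standard error 0.11).
The remaining DKK3 probes were not above background on any array. Detection values were 0.328 to 0.819 for the first and 0.247 to 0.898 for the other. One of them is assigned to the same RefSeq transcript as the bright probe. Probes of a single gene thus differed in whether they gave a signal at all.
DKK2, which can inhibit or promote Wnt signaling depending on the receptors present, was not above background on any array. Its signals were 138.6 to 187.8 and its detection values 0.390 to 0.917. DKK4, an inhibitor that acts like DKK1, had signals of 167.1 to 193.9 and detection values of 0.237 to 0.378. No fold change is given for these probes, since both groups were at background.

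Of the Kremen receptors, KREMEN2 was above background on all 6 arrays. Its signal was 265.4, 229.6 and 264.6 with CT16 siRNA, against 224.6, 237.4 and 225.6 with control siRNA. The log2 signal was 7.94 ± 0.14 with CT16 siRNA and 7.87 ± 0.18 with control siRNA (SD, n = 3 each), the groups overlapped, and the log2 difference of 0.08 (standard error 0.13) was smaller than the spread between replicates. It was 0.23 (standard error 0.31) with neqc background correction and 0.18 (standard error 0.12) with a median shift, close to 0 without CT16 siRNA replicate 3 (-0.00047) and negative without control siRNA replicate 1 (-0.02).
KREMEN1 was not above background on any array, but its detection values came nearest to the threshold among the members at background. They were 0.0626, 0.0686 and 0.189 with CT16 siRNA, against 0.0679, 0.466 and 0.312 with control siRNA. The values overlapped between the groups, and no fold change is given.

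Of the co-receptors, LRP5 was above background on all 6 arrays. Its signal was 547.8, 561.5 and 564.3 with CT16 siRNA, against 538.5, 459.1 and 559.7 with control siRNA. The log2 signal was 9.04 ± 0.12 with CT16 siRNA and 9.10 ± 0.09 with control siRNA (SD, n = 3 each). The groups overlapped, and the log2 difference of -0.06 (standard error 0.11) was smaller than the spread between replicates. With a median shift it was 0.15 (standard error 0.12), so LRP5 has no settled direction.
LRP6 was not above background on any array. Its signals were 163.9, 139.2 and 150.5 with CT16 siRNA, against 203.8, 171.4 and 156.5 with control siRNA. The lowest detection value, 0.140, was that of control siRNA replicate 1. The signals did not overlap between the groups after normalization, but both were at background, and no difference is given.

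**Figure D3:**
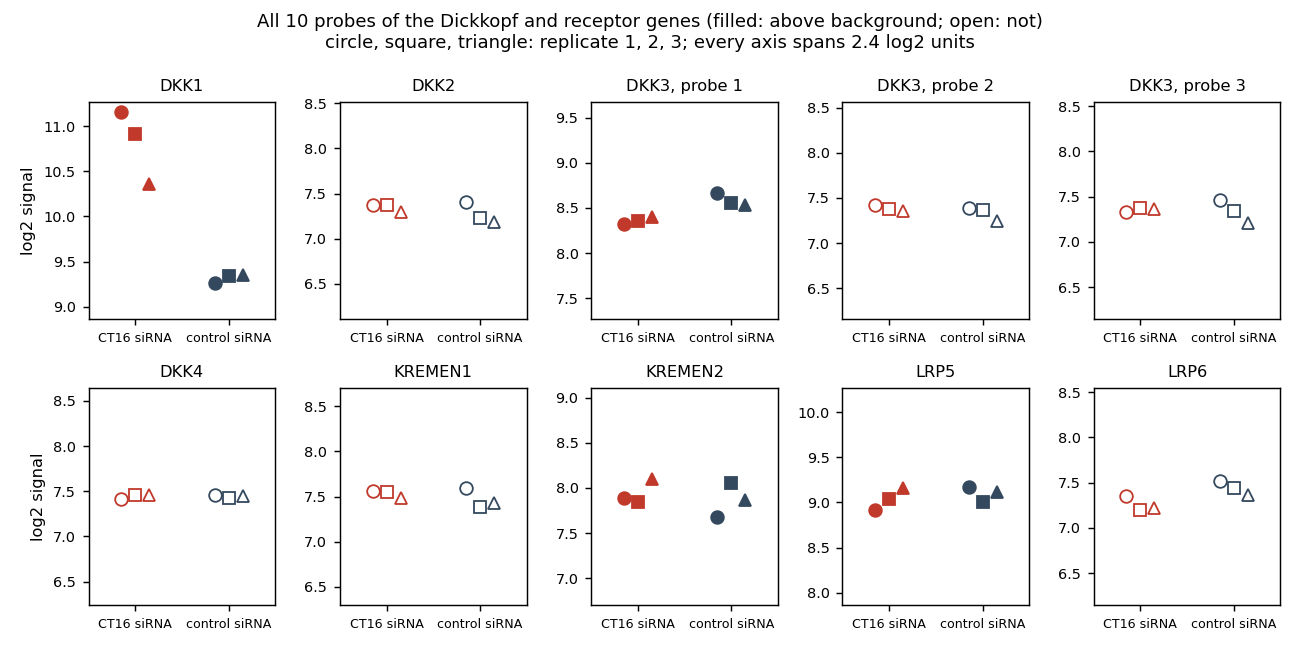
The log2 signal of all 10 member probes on each array, CT16 siRNA left and control siRNA right, with filled symbols where the detection value was under 0.05. DKK1, DKK3 probe 1, KREMEN2 and LRP5 are filled on all 6 arrays, and the other 6 probes are open on all arrays.

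In all, 4 of the 8 member genes were above background, against 54.9% of the 16225 named genes. Each of these 4 was above background on all 6 arrays in both groups, so none passed the filter through 1 group. A probe at background gives only an upper bound, and it cannot be told from these arrays whether the gene was silent or the probe was poor.

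The genes whose profile was most like that of DKK1 were sought by the root mean square difference over the 6 arrays, with each log2 signal taken relative to its control siRNA mean. Among 8908 genes the nearest were NPIPA1 (0.36), RAI14 (0.44), CCND1 (0.45), UTS2 (0.46) and BZW1 (0.48). CCND1 encodes cyclin D1, UTS2 the peptide hormone urotensin 2, and NPIPA1 belongs to a family of near-identical copies, so its probe may also read other copies.
The log2 signal of NPIPA1 was 11.27, 10.58 and 10.27 with CT16 siRNA, against 9.87, 9.34 and 9.64 with control siRNA. Like DKK1, it was highest in replicate 1 and lowest in replicate 3 of the CT16 siRNA arrays. The log2 signal of CCND1 was 10.82, 10.89 and 9.82 with CT16 siRNA, and 9.76, 9.37 and 9.64 with control siRNA. Replicate 3 of the CT16 siRNA arrays was close to the controls here, unlike in DKK1.
In UTS2, by contrast, replicate 2 was the lowest of the CT16 siRNA arrays, and the control siRNA arrays were at a log2 signal of 10.53, 10.30 and 10.53. In BZW1 the groups overlapped, unlike in DKK1, with CT16 siRNA replicate 3 at 10.28 and control siRNA replicate 1 at 10.30. The log2 differences of the 5 genes ranged from 0.92 (CCND1) to 1.11 (UTS2). That they were higher with CT16 siRNA follows from how they were chosen.

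Around the members, 123 further genes of the Wnt pathway were listed by role, and 66 of the 119 with a named probe were above background. Of these, 35 had positive and 31 negative log2 differences, with a median of 0.03, against a median of -0.001 over all 8909 named genes above background. The groups did not overlap in 5 genes that were higher (7.58%) and 3 that were lower (4.55%), against 7.31% and 9.77% of all named genes, and 0 passed an adjusted p under 0.05 by limma. These counts include FZD3, TPBG and WNT10B, which were above background on 3 arrays only and may have passed the filter through 1 group. Their lack of overlap may thus follow in part from the filter.
The list closest to the members was meant for proteins that handle Dickkopf ligands and the co-receptors. Of its 18 genes with a named probe, 7 were above background, and only RNF43 did not overlap between the groups. RNF43, a membrane ubiquitin ligase that removes Frizzled receptors and is opposed by R-spondins, had a log2 signal of 8.87, 8.95 and 8.56 with CT16 siRNA, against 9.10, 9.08 and 9.08 with control siRNA (difference -0.29, standard error 0.12). CKAP4, another cell surface receptor of DKK1, had overlapping groups and a difference of -0.14 (standard error 0.15). LGR4, a receptor of R-spondins, was at 0.26 (standard error 0.13), SOSTDC1, a secreted ligand of the co-receptors, at -0.03 (standard error 0.11) and CAPRIN2 at 0.12 (standard error 0.13). TMEM198 had a difference of -0.22 (standard error 0.12) and TLNRD1 of -0.19 (standard error 0.11). Of these genes, TMEM198 was above background on 3 arrays only, LGR4 on 4 and CAPRIN2 on 5. TLNRD1, listed by its older symbol MESDC1, encodes an actin-binding protein with no known part in handling these ligands and receptors, but it is included in the counts. MESD, the chaperone that LRP5 and LRP6 need to reach the cell surface, was above background on 1 array only.
Of the Wnt ligands and their secretion factors, 4 of 20 were above background, namely WNT3, WNT5B, WNT10B and WLS, which carries Wnt proteins to the cell surface. WNT10B was lower without overlap by a small difference of -0.13 (standard error 0.10), and the other 3 overlapped. It was above background on 3 arrays only and may have passed the filter through 1 group. Of the Frizzled and alternative receptors, 11 of 14 were above background. FZD3 was higher without overlap (0.31, standard error 0.11), but it too was above background on 3 arrays only and may have passed through 1 group.
The other secreted inhibitors were mostly at background, with 3 of 10 measured. TPBG, a membrane protein that inhibits beta-catenin signaling, was higher without overlap (0.25, standard error 0.10). It was above background on 3 arrays only, and may likewise have passed the filter through 1 group. The groups overlapped in SFRP1, a Frizzled-related antagonist, whose log2 signal was 10.49 ± 0.56 with CT16 siRNA and 10.42 ± 0.26 with control siRNA (SD, n = 3 each).
In the signalosome and destruction complex, 18 of 28 genes were above background, and 1, the phosphatase subunit PPP2R5E, was higher without overlap (0.40, standard error 0.15). CTNNB1, which encodes beta-catenin, had a difference of -0.10 (standard error 0.11), and the values overlapped. Of the TCF/LEF factors and partners of beta-catenin, 15 of 17 were above background, and the groups overlapped in all 15.
Of 20 listed Wnt target and feedback genes, 19 had a named probe and 11 were above background. CCND1 (0.92, standard error 0.28) and MYC (0.22, standard error 0.10), genes of cell growth, were higher without overlap, and BIRC5, which encodes survivin (-0.51, standard error 0.12), and RNF43 were lower. AXIN2, a widely used readout of beta-catenin activity, was not above background on any array.

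**Figure D4:**
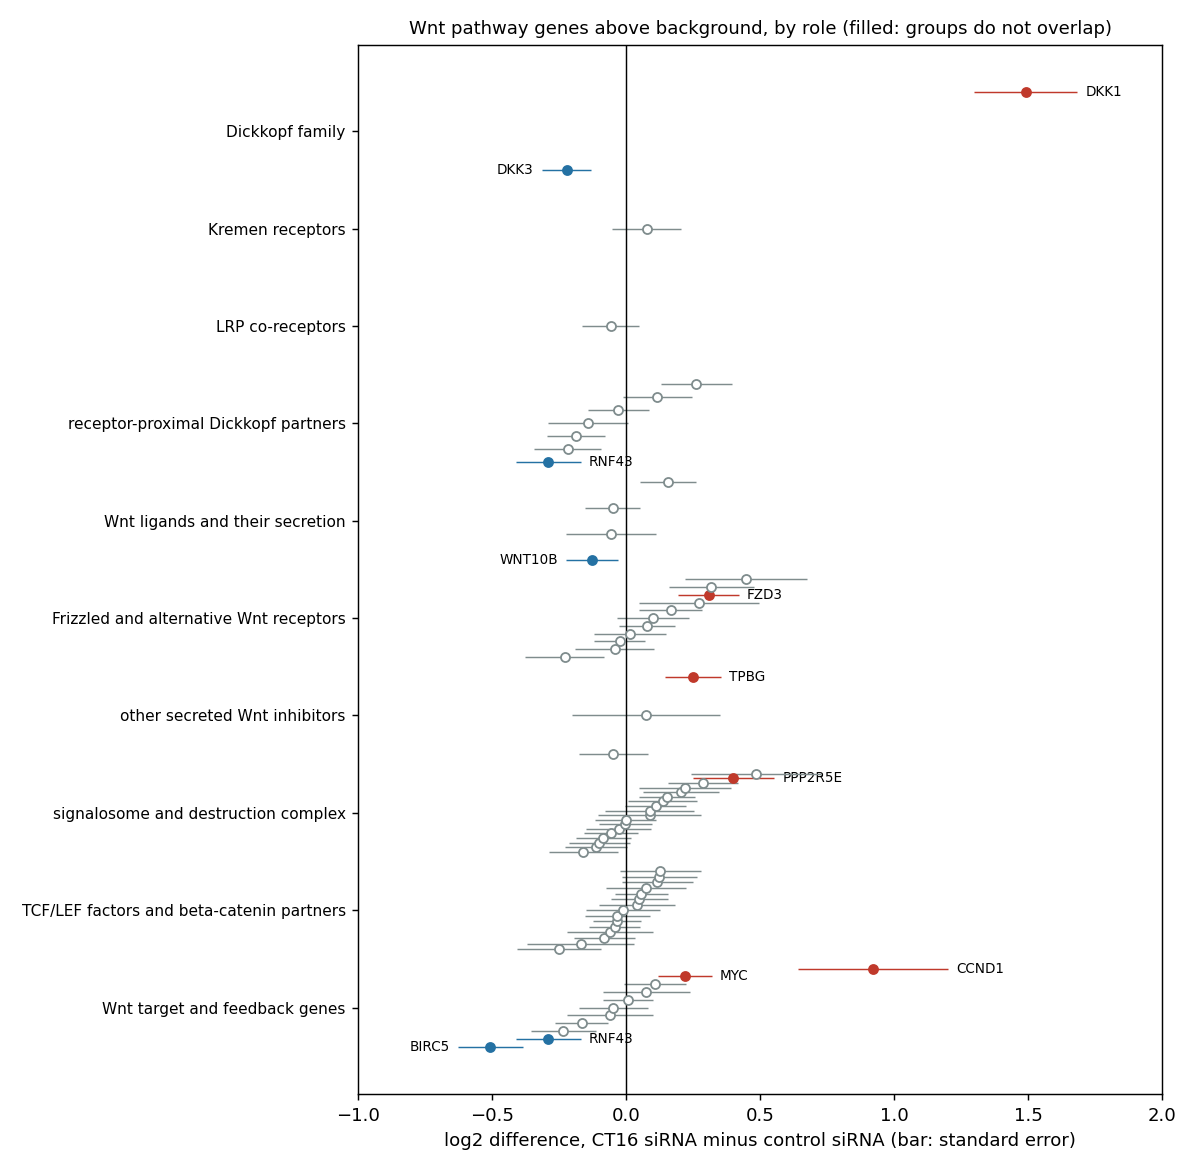
The log2 difference (CT16 siRNA minus control siRNA, with its standard error) of every listed Wnt pathway gene above background, by role, with filled and named points where the groups did not overlap. DKK1 stands at 1.49, and the next highest, CCND1, at 0.92.

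Under the other ways of processing the arrays, the log2 difference of DKK1 stayed between 1.32 and 1.75 and the groups did not overlap. Those of KREMEN2 and LRP5 lay on both sides of 0. That of DKK3 stayed negative but ranged from -0.39 with neqc background correction to -0.017 with a median shift.

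**Figure D5:**
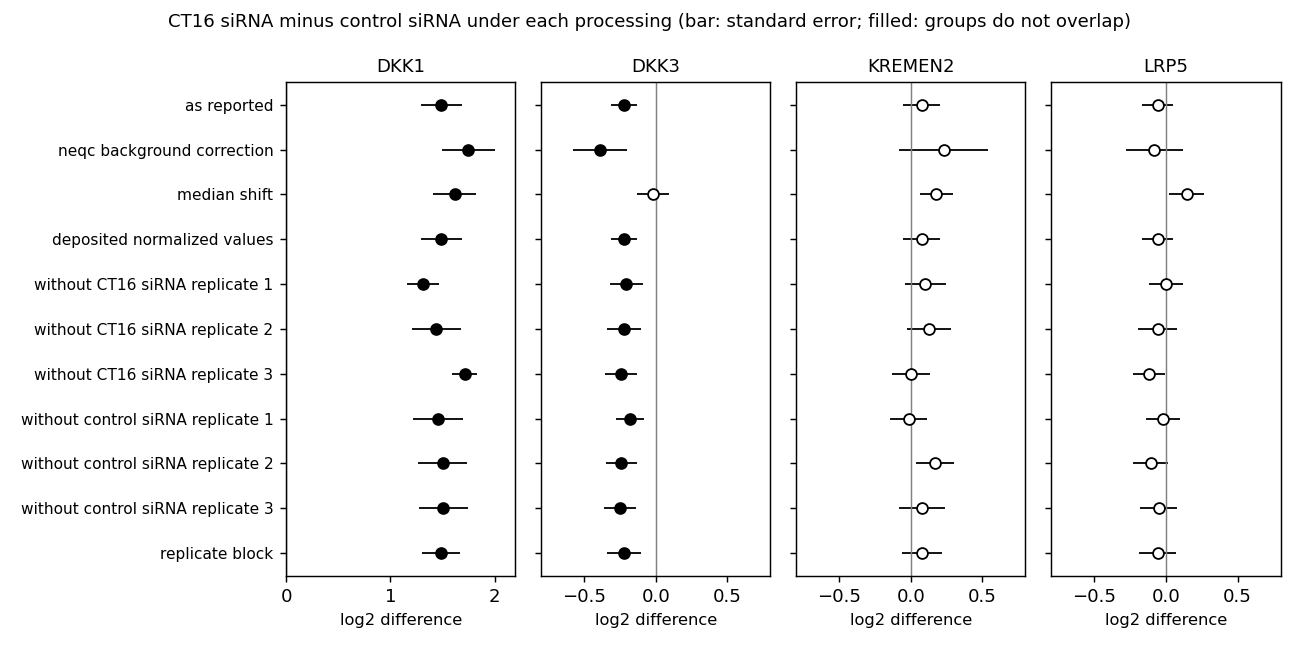
The log2 difference (CT16 siRNA minus control siRNA, with its standard error) of the 4 members above background as reported and under each alternative, with filled points where the groups did not overlap. DKK1 is at 1.32 or more in every row, while KREMEN2 reaches 0.23 with neqc background correction and LRP5 0.15 with a median shift, both with overlapping groups.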

How the data were processed

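For each array the authors deposited the signal intensity of every probe, linear and before any normalization, and a detection p-value. They also deposited intensity values normalized by the quantile method. The sources used here do not state how beads were summarised or whether background was subtracted.

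Of 47296 probe rows, 7 were empty. Symbols came from the platform annotation (18468 probes of 1 gene, 0 of several, 28821 unnamed), and MESDC1, MESDC2 and AES were looked up as TLNRD1, MESD and TLE5. Here the log2 signal was quantile-normalized and fitted with limma 3.58.1 in R 4.3.3 (lmFit, eBayes, Benjamini-Hochberg adjustment), on the probes above background (detection p-value under 0.05, 3 or more of 6 arrays). The fit was tested on simulated data. The simulated noise was independent and had the same spread in both groups, while the spread on the real arrays was unequal. The rank product served only as ranks in the 9 array pairs, without its permutation FDR. A gene with several probes was represented by the brightest. Named were all members, listed genes without overlap (at most 3 per direction and list), the list closest to the receptors, and the 5 genes most like DKK1. Others named as examples were chosen after their values were seen. The members and lists were chosen with earlier results of these data known. Plots were made in Python 3.11.15 (matplotlib 3.10.9). Every adjusted p is limma's. The number of arrays limits the precision.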

Additional observations from a re-analysis of the deposited data

How the results depend on the processing

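The log2 difference of DKK1 was 1.75 with neqc background correction (offset 16), 1.62 with a median shift and 1.49 with the deposited normalized values, and 1.32 to 1.71 when 1 array was left out. That of DKK3 was -0.39 with neqc, -0.017 with a median shift and -0.25 to -0.18 when 1 array was left out. KREMEN2 was at 0.23 with neqc and 0.18 with a median shift, LRP5 was at 0.15 with a median shift, and KREMEN2 and LRP5 at -0.02 to 0.17 and -0.12 to 5.81e-05 when 1 array was left out. The median shift moved the median difference of all probes above background to 0.10, against 0.00034 with quantile normalization, and the cause of each change was not tested. It gave 8 higher and 1 lower pathway genes without overlap, against 12.1% and 1.52% of the 66 genes and 10.2% and 1.72% of all named genes. Without a filter, 7 of 119 genes were higher and 5 lower (5.88% and 4.2%, against 6.63% and 7.35% of all named genes). With the strict filter (detection value under 0.01 on all 6 arrays), 3 of 47 were higher and 2 lower (6.38% and 4.26%, against 6.12% and 12%). With 1 array left out 5 to 18 were higher and 5 to 11 lower. The highest counts, 18 and 11 (27.3% and 16.7%), arose without CT16 siRNA replicate 3, where 26.4% and 25.8% of all named genes did not overlap, and the other such fits had 5 to 10 higher and 5 to 6 lower, against 8.55% to 13.8% and 11.5% to 13.9% of all named genes. The limma calls were 0 to 195 when 1 array was left out, and 0 under every other alternative run.

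The deviations of same-numbered arrays from their group means correlated at 0.42, 0.02 and -0.41. With 3 arrays per group these values are tied to each other, so they cannot decide whether the replicate numbers pair the samples. With the replicate block, 0 probes were called and the log2 difference of DKK1 was 1.49 (standard error 0.18). A slide block was not run, since no column names a slide. Signals near background limit the members at the low end, and the fold change of DKK1 was 3.36 with neqc, against 2.81 as reported.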
